A study of Mus musculus with 4 samples.

Results

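The comparison set wild-type Swiss 3T3 fibroblasts labelled 24 h of coculture with mast cells against the same cells labelled 0 h. Swiss 3T3 is an established mouse fibroblast line, here with intact Lpar1 (Lpar1+/+, called WT). The 2 WT arrays were chosen by their labels, as 1 array per time, from 4 arrays in all. The other 2 arrays carry a clone grown from 1 cell after CRISPR/Cas9 editing with a guide placed beside exon 3 of Lpar1 (Lpar1-/-, called KO) at the same times, and serve here only as a side-by-side reading. The mast cells were wild type, were grown from bone marrow for 4 to 6 weeks in 10 ng/ml IL-3, and were laid on the fibroblasts for 24 h with 100 ng/ml SCF, the ligand of Kit. Per the labels' protocols the fibroblasts were then recovered by trypsin and reseeding or with beads against CD117, the Kit protein, and 200 ng of RNA pooled from 3 samples was labelled with Cy3 for each array. What was in the 0 h samples is not given by the labels. All 4 arrays lay on 1 slide.

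Fibroblasts build and remodel the extracellular matrix, and they also read and send inflammatory signals. Immature mast cells from bone marrow cultures acquire features of connective tissue mast cells on a fibroblast layer, in which SCF on the fibroblast and its receptor Kit on the mast cell take part. Lysophosphatidic acid is a signalling lipid made by autotaxin (Enpp2) and read by receptors such as Lpar1, and the series title places it in a circuit between these cells. The question of the present comparison is which fibroblast transcripts lie apart between the labelled times when Lpar1 is intact.

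Levels are normalized log2 signals, in which 0 is the array's own 75th percentile, and a difference is the 24 h level minus the 0 h level, so that 1 is 2-fold. Each group being a single array, spread between replicates is unknown and nothing could be tested. Genes at least 2-fold apart are called higher or lower, a description of these arrays alone. The standard error (SE) comes from the scanner's spot error, had a median of 0.20, and covers neither culture nor labelling. Of 29658 genes, 19207 were well above background on both WT arrays (measured), 2287 on 0 h alone, 808 on 24 h alone and 7356 on neither. Of those measured, 15.8% were called higher and 5.57% lower, around a median of 0.28. Higher genes thus made up 73.9% of calls, but 64.8% after quantile normalization, 42.3% after cyclic loess, 41.5% after scaling on fibroblast markers, 38.6% after normexp with quantile normalization, and 49.8% under a stricter filter on dim probes. The excess of higher calls lay among dim genes: below a mean signal of −4 on the WT arrays 45.1% were higher and 3.52% lower, and at or above it 4.65% were higher and 6.35% lower (648 and 884 of 13927 genes, median 0.19). The 2 dim spike-in transcripts, added in equal amounts, read 0.98 and 1.25 higher at 24 h, and the 8 brighter ones read −0.07 to 0.43. Members of a mean signal under −4 are therefore called dim below, and their differences are also given with normexp, a background correction that compresses small signals.

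**Figure D1:**
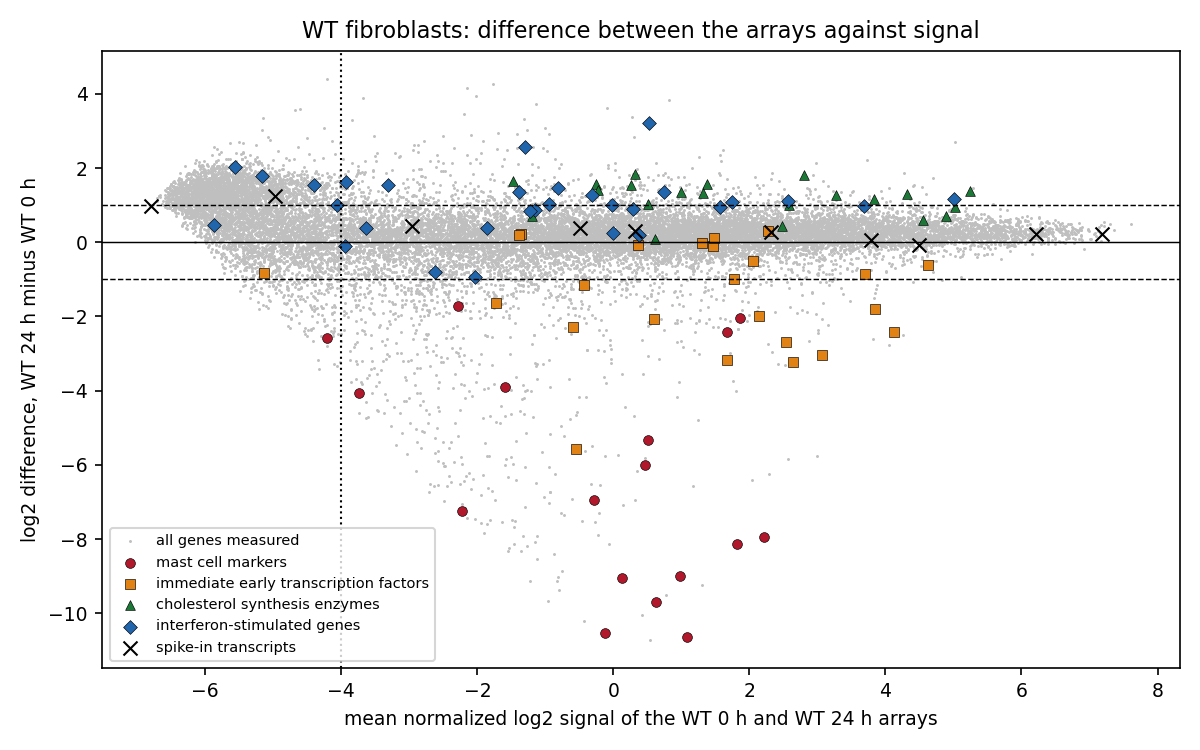
The difference between WT 24 h and WT 0 h (log2, vertical axis) is plotted against the mean normalized log2 signal of these arrays for 19207 measured genes (grey), with 4 gene lists in colour and spike-in transcripts as crosses. Dashed lines mark 2-fold and the dotted line the dim limit of −4; the 17 measured mast cell markers lie between −10.64 and −1.72, the cholesterol enzymes lie above 0, and the grey cloud bends upwards left of the dotted line.

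The largest difference between the WT arrays was in mast cell transcripts, which were abundant on the array labelled 0 h. Cpa3, a mast cell protease, read 6.20 at 0 h and −1.75 at 24 h. Fcer1a, the IgE-binding subunit of its receptor, read 5.48 and −3.51. Tph1, which makes serotonin, read 6.41 and −4.23. All 17 measured mast cell markers were lower at 24 h, with a median difference of −6.93, against 5.57% lower of all genes measured. Another 7 were well above background at 0 h alone, from Kit, the SCF receptor (at least 1545-fold lower), to the serotonin transporter Slc6a4 (at least 1.88-fold). The other 2 of the 26 markers, Mcpt1 and Mrgprb1, were on neither array. Summed over all 26 markers, the linear signal in units of the 75th percentile was 444 at 0 h and 4.75 at 24 h, or 1.07% of the 0 h sum. The smallest measured differences were those of Hdc, the enzyme that makes histamine (−1.43 to −3.15), and Mitf, a transcription factor of mast cells and pigment cells (2.88 to 0.85).

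Of the pan-leukocyte markers, 11 of 13 measured ones were lower (median −6.92) and 7 more were on 0 h alone. All 13 were of mean signal −4 or more, where 6.35% of all genes were lower. Tyrobp, an adaptor of activating receptors, read 3.99 and −4.13, and Vav1, a guanine nucleotide exchange factor of blood cells, 2.02 and −5.81. Arhgdib, a guanine nucleotide dissociation inhibitor, was an exception at 3.19 and 3.15. Of 20 markers of macrophages and neutrophils 13 were measured, 3 higher and 2 lower. At a mean signal of −4 or more 1 of 7 was higher and 2 lower, against 4.65% and 6.35% of all such genes. Cd14 was the higher one with a signal above the dim limit (−0.02 and 1.52). S100a8 (−1.33) and Cd68 (−1.48, with another probe at 0.83) were the lower ones. Adgre1, Fcgr1, S100a9 and Cx3cr1 were well above background at 0 h alone and Mpo at 24 h alone, all named after their values were seen. The linear sum over the 20 markers was 13.61 at 0 h and 6.20 at 24 h, or 45.5% of the 0 h sum. The brightest of the 20 at 0 h, a gene seen at 0 h alone, read 2.97 in log2. The 0 h sum rests largely on that gene, so the lower sum at 24 h does not describe the list as a whole. In RNA from a mixed sample, fewer cells of a type and less RNA per cell cannot be told apart. Every difference below is between arrays that also differ by this mast cell signal, and its part in them was not tested.

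The cells carried a fibroblast profile at both times, with 2 gaps. Of 24 fibroblast markers 22 were measured, 6 of them higher and 0 lower, around a median of 0.44. All 22 were of mean signal −4 or more, and of all genes of that signal 4.65% were higher and 6.35% lower (median 0.19). Collagen Col1a2 (5.90 and 6.26), fibronectin Fn1 (5.32 and 5.54) and the matrix protein Sparc (5.68 and 5.83) were bright on both arrays. Thy1, the defining surface marker of many fibroblasts, read −7.02 and −7.41 and was not well above background at 24 h, while on the KO arrays it read 3.73 and 4.12. Lum, a matrix proteoglycan, was not well above background at 0 h and read −6.04 at 24 h. Fap, a membrane protease of activated fibroblasts, showed the largest difference of the markers (−3.54 to −0.65, 2.88), followed by Dcn, the proteoglycan decorin (3.34 to 5.20, 1.86). Col6a1 (1.55), the platelet-derived growth factor receptor Pdgfrb (1.09), Col3a1 (1.05) and the homeobox factor Prrx1 (1.03; its other probe gave −0.36) were the remaining ones past 2-fold. The linear sum over the 24 markers at 24 h was 137.7% of that at 0 h, in the direction opposite to the mast cell sum. Scaling on the median of these markers in place of the 75th percentile takes 0.44 off each difference.

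Enpp2, which encodes autotaxin, had the largest difference of the 15 highest named genes with a mean signal of −4 or more, from −3.90 at 0 h to 0.36 at 24 h (4.26, SE 0.21). Gdpd2, a glycerophosphodiester phosphodiesterase, read −3.99 and −0.04 (3.95). Cyp2f2, a cytochrome P450, read −1.09 and 2.74 (3.83). Spib, an Ets factor best known from B cells, read −1.90 and 1.73 (3.62), and Apoc1, an apolipoprotein, −2.98 and 0.35 (3.33). Lrg1, a leucine-rich glycoprotein of serum, read −5.50 and −2.20 (3.31, 1.78 with normexp), and Elobl, an elongin B relative, −2.54 and 0.53 (3.07). The rest of the 15 highest belong to lists described below. These 0 h levels range from −5.64 to −1.09, and with normexp the 15 differences were all smaller, from 1.78 to 3.62. Among genes seen at 24 h alone, Abcg5, a sterol transporter subunit, was at least 9.98-fold higher in processed signal (log2 difference 0.97 with normexp), and Ecrg4, a secreted peptide precursor, at least 8.1-fold (0.74). The keratin Krt15 was at least 7.45-fold higher (0.47 with normexp) and the proteoglycan Aspn at least 7.29-fold (0.60), and none of these 4 dim genes was past 2-fold with normexp.

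At the lower end all 15 genes were well above background at 24 h yet between 509-fold and 1679-fold brighter at 0 h. Mast cell and blood cell products fill it: Csf2rb2 and Csf2rb, receptor subunits of the IL-3 family, Alox5, the first enzyme of leukotriene synthesis, Gzmb, a granule protease, and Srgn, the granule proteoglycan serglycin. Adora3, an adenosine receptor, read 3.88 and −5.80, Prkcb, a protein kinase C, 3.33 and −5.79, and Anpep, aminopeptidase N, 3.75 and −5.39. In KO cells Anpep differed by −1.81, against −9.73 for Prkcb. Scin, an actin-severing protein, was on 0 h alone and at least 2056-fold lower at 24 h, and so was Rprm, a cell cycle inhibitor, at least 1305-fold. Atp8b5, a flippase, had 1 probe at least 796-fold lower, while its other 2 gave 0.45 and 0.58.

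Many complement genes were higher at 24 h, and some were not. Complement is a set of serum proteases and binding proteins that tag surfaces, and fibroblasts make several of them. Of 19 genes 15 were measured, 10 higher and 2 lower (median 1.40), and at a mean signal of −4 or more 7 of 10 were higher, against 4.65% of all such genes. C3, the central component, stood at 3.67 at 0 h and 6.38 at 24 h (6.56-fold; probe on chromosome 17 from 57343416 to 57343475, mm9). The proteases of the C1 complex lay apart by similar amounts: C1ra went from 1.40 to 3.26, C1s1 from 1.20 to 2.96 and C1rb from −1.37 to 0.34. Cfb, the protease of the alternative pathway, differed by 2.95 (−3.18 to −0.23). C1ra had a second probe with a smaller difference (1.00). C4b, a substrate of the C1 complex named after its values were seen, differed by 1.40. Measured members within 2-fold, named after their values were seen, were Hc, which encodes C5 (−0.20), the C1 inhibitor Serping1 (0.84) and the lectin pathway protease Masp1 (0.72), and C2 was well above background at 0 h alone. The 2 lower members are membrane inhibitors, Cd55 (2.42 to −4.29) and Cd59a (−1.11), and they lay in the direction of the mast cell markers. With fibroblast scaling the median was 0.96, and with normexp 0.67, where the dim members C6, C7 and Cfd read between 0.16 and 0.35.

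Acute-phase proteins, which IL-6 and related cytokines acting through the receptor gp130 induce, were in part higher on the 24 h array. Of 23 measured genes 10 were higher and 3 lower, with a median of 0.81, and at a mean signal of −4 or more 8 of 21 were higher and 3 lower, against 4.65% and 6.35% of all such genes. Hp, haptoglobin, read −4.23 at 0 h and −0.07 at 24 h (4.16; chromosome 8 from 112099045 to 112099104). Serpina3n, a protease inhibitor, read −5.64 and −1.74 (3.90; 2.29 with normexp), and Saa3, a serum amyloid, −3.93 and −0.47 (3.46). Lbp, which binds lipopolysaccharide, was 4.36-fold higher by its brightest probe, and Lcn2, an iron-scavenging lipocalin, 4.33-fold. The ferroxidase Cp, named after its values were seen, went from −0.55 to 1.28. The receptors and transcription factors of the pathway differed less, among them Cebpd (0.88), Cebpb (0.45) and, named after their values were seen, Stat3 (0.81), Il6st (0.81) and Osmr (0.81). The receptor Lifr, also named after its values were seen, was just past 2-fold (1.05). The lower members were the cytokines Il6 (4.20 to 1.82) and Lif (−0.55 to −5.41) and the kinase Pim1 (−1.16). The fibroblast-scaled median was 0.37 and the normexp median 0.57.

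Interferon-stimulated genes, the antiviral program that type I interferon turns on through STAT2 and IRF9, were higher on the 24 h array. Of 32 genes 30 were measured, 17 higher and 0 lower (median 1.02); at a mean signal of −4 or more 13 of 25 were higher, against 4.65% of all such genes. The transcription factor complex of these genes binds a sequence called the interferon-stimulated response element (ISRE). The letters GAAANNGAA were found on either strand in the 250 bases before the start of 45.5% of the 22 list members that have a RefSeq promoter entry, against 8.18% of 27025 genes. The stretches around the matches in Ifit3 and Stat2 are shown because these 2 had the largest difference of the measured members with a match, with the ISRE letters in capitals, as the opposite strand of the motif. They lie on GRCm38.p6, Ifit3 at chr19:34583334-34583475 and Stat2 at chr10:128270248-128270325, both on the plus strand, and are taken from RefSeq.
Ifit3: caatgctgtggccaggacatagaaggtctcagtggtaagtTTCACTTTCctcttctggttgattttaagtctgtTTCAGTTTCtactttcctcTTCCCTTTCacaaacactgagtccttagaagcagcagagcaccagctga
Stat2: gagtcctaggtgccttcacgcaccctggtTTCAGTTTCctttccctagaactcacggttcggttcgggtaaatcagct
The Ifit3 matches begin 155, 121 and 102 bases before the start and the Stat2 match 221 bases before it. A match of letters is not a shown binding site: the 8 measured members with one had a median difference of 1.06 (5 higher) and the 12 measured members without one 0.98 (6 higher).

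The members with the largest differences among those above the dim limit were Zbp1 and Ifit3. Zbp1, a sensor of Z-form nucleic acid, read −1.09 at 0 h and 2.13 at 24 h (3.22; second probe 2.39). Ifit3, which blocks viral RNA translation with its relatives, read −2.59 and −0.02 (2.57). The GTPases Mx1 (1.55) and Mx2 (1.62) and the membrane protein Ifitm3 (4.42 to 5.59), which hinder viral entry or replication, and the ubiquitin-like Isg15 (2.02 to 3.13) were higher as well. Irf7 (2.02) and Oas2 (1.78) were dim and gave 0.45 and 0.49 with normexp. Among the signal carriers, named after their values were seen, Stat2 was 2.54-fold higher, Irf9 differed by 0.20 and the negative regulator Usp18 by 0.25. The members with negative differences were Oas1a (−0.94), Oasl1 (−0.80) and Rsad2 (−0.09). With fibroblast scaling the list median was 0.58 and with cyclic loess 0.89.

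The interferon gamma and antigen presentation list was mixed. Of 26 measured genes 9 were higher and 2 lower around a median of 0.44, and at a mean signal of −4 or more 8 of 24 were higher, against 4.65% of all such genes. The higher ones were mostly GTPases that act on intracellular pathogens: Iigp1 (2.42), Gbp2 (−0.01 to 1.70), Gbp3 (1.55), Irgm2 (1.55) and Gbp4 (1.34), beside the transcription factor Irf1 (3.33 to 4.40). Their relatives Gbp5 (−0.62), Gbp6 (−0.46) and Gbp7 (−0.86), named after their values were seen, had negative differences within 2-fold. The class I genes B2m (0.35) and H2-K1 (−0.50, with another probe at −1.26) lay within 2-fold at their brightest probes. Lower were Socs1, a feedback inhibitor (2.78 to 0.66), and Cd274, which encodes PD-L1 (0.41 to −3.47), in the direction of the mast cell markers.

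The enzymes of cholesterol synthesis were higher at 24 h along nearly the whole pathway. Cells make cholesterol from acetyl-CoA by way of mevalonate, and the factor SREBP2 raises the genes of the pathway together when sterols in the endoplasmic reticulum are low. All 21 enzymes were measured and bright, 15 were at least 2-fold higher against 4.65% of all genes of that signal, and all 21 differences were above 0 (median 1.29). The median of all genes of that signal was 0.19. With fibroblast scaling the list median was 0.85, with cyclic loess 1.03 and with normexp 1.08.

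Of the mevalonate steps, Acat2, the first thiolase, read −2.30 at 0 h and −0.65 at 24 h (1.65). Hmgcs1, the HMG-CoA synthase, read 4.55 and 5.49 (0.94). The kinases and the decarboxylase that turn mevalonate into an isoprenoid lay further apart: Mvk 1.27, Pmvk 1.80 (1.90 to 3.70) and Mvd 1.58 (−1.04 to 0.54). Idi1, the isomerase, differed by 1.18 and Fdps, which makes farnesyl diphosphate, by 1.29, whereas Ggps1, which leaves the sterol branch towards geranylgeranyl diphosphate, differed by 0.09. Fdft1, squalene synthase, read 0.60 and 2.16 (1.57; second probe 0.64), Sqle, the epoxidase, 0.61, and Lss, which closes the ring, 1.04. After lanosterol the demethylation and reduction enzymes Cyp51 (1.32), Tm7sf2 (1.36), Msmo1 (4.54 to 5.93, 1.39), Nsdhl (1.55) and Hsd17b7 (1.40) were all past 2-fold. Of the last steps Sc5d (1.01) and Dhcr7 (1.83, second probe 0.82; chromosome 7 from 151033874 to 151033933) were past it, and Ebp (0.70) was not.

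SREBP proteins bind the sterol regulatory element. Its letters TCACNCCAC, on either strand, were in the 250 bases before the start in 1 of the 16 enzymes with a promoter entry, Hmgcs1, and in 1.22% of 27025 genes. That stretch (GRCm38.p6, chr13:119690174-119690262, plus strand, RefSeq; match in capitals, 137 bases before the start) is shown as the one promoter of the list that holds the letters searched.
Hmgcs1: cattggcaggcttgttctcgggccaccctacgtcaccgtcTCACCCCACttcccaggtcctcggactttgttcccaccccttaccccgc
The motif was searched only in this form and window, and the other 15 entries were not examined for related forms.

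The genes that regulate and move sterols had fewer calls than the enzymes. All 19 measured were of mean signal −4 or more, and 3 were higher and 1 lower (median 0.29). Of all genes of that signal 4.65% were higher and 6.35% lower (median 0.19). Srebf2, which encodes SREBP2, differed by 0.90 and the SREBP retention protein Insig1 by 0.98, both named after their values were seen. The higher members were Nr1h3, the oxysterol receptor LXR alpha (−1.65 to −0.22), its target Abca1, a cholesterol exporter (0.29 to 1.66), and the lipoprotein receptor Vldlr (2.19 to 3.46). Apoe was lower (−1.18), and Abcg1, another exporter named after its values were seen, was on 0 h alone and at least 170.4-fold lower. Fatty acid enzymes had 4 of 22 higher and 1 lower (median 0.66), beside 15.8% and 5.57% of all genes measured. At a mean signal of −4 or more 4 of 21 were higher and 1 lower, against 4.65% and 6.35% of all such genes. Acsl1, which activates fatty acids, differed by 1.29, Acacb by 1.18, the desaturases Scd2 by 1.04 and Fads1 by 1.03, and the citrate lyase Acly by 0.91. Scd3 was the lower one at −1.03, but another probe gave 1.04. Among adipogenic and lipid storage genes 10 of 22 were higher, 7 of them dim, with normexp differences of 0.13 (Cidea) to 0.97 (Zfp423) in that dim group. At a mean signal of −4 or more 3 of 13 were higher. The brighter ones were Pparg, which drives fat cell differentiation (−1.67 to −0.15), the lipid droplet coat Plin4 (−2.13 to −0.09) and, named after its values were seen, the lipase Lpl (3.51 to 4.63).

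**Figure D2:**
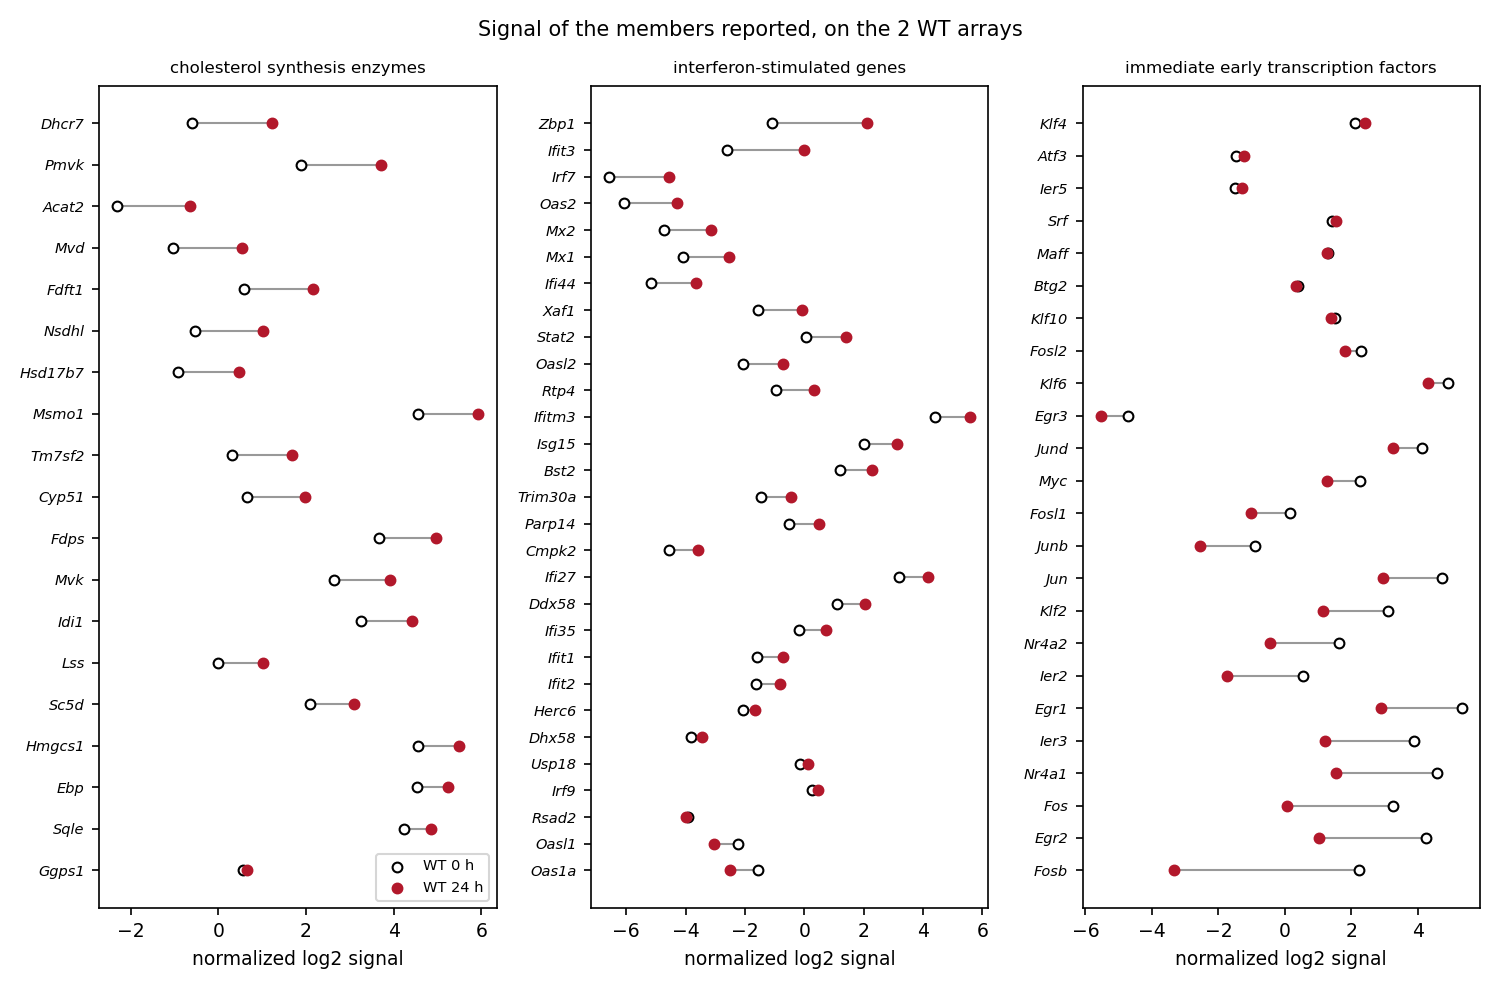
The normalized log2 signal of the measured members of 3 lists that are reported here is shown at WT 0 h (open circles) and WT 24 h (red circles), 1 array each, with a grey line joining them and members ordered by their difference. Every cholesterol enzyme shown has its 24 h circle to the right, as do the interferon-stimulated genes shown other than Oas1a, Oasl1 and Rsad2, whereas 20 of 24 immediate early factors have it to the left.

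Immediate early transcription factors were lower on the 24 h array. These genes are switched on within minutes by growth factors or stress and then shut off. Of 26 genes 24 were measured, 12 lower and 0 higher (median −1.07); at a mean signal of −4 or more 12 of 23 were lower, against 6.35% of all such genes. Fosb, a partner in the AP-1 factor, read 2.23 at 0 h and −3.34 at 24 h (−5.57; chromosome 7 from 19888168 to 19888227), and Fos 3.25 and 0.08 (−3.17). The zinc finger factors Egr1 and Egr2 differed by −2.42 and −3.22, the orphan receptor Nr4a1 by −3.02 and Ier3, an early response survival protein, by −2.69. Ier2, Nr4a2, Klf2, Junb and Fosl1, the remaining lower members, lay between −2.27 and −1.16. Jun, the other partner in AP-1, differed by −1.79 (4.75 to 2.96). Members of the list within 2-fold, named after their values were seen, included Klf4 (0.31), Atf3 (0.23), Srf (0.12) and Myc (−0.99). The lower members lay in the direction of the mast cell markers (17 of 17 lower), no array of mast cells alone was used here, and the part of mast cell RNA in the 0 h signal was not tested. The list median kept its sign under all settings, between −1.52 and −1.07.

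SRF, the serum response factor, binds CArG boxes in many of these promoters, and CREB binds TGACGTCA. In the 250 bases before the start a CArG box was found in Egr2 and Srf, 2 of 20 members with an entry, against 1.62% of 27025 genes, and TGACGTCA in Btg2 and Maff, against 1.77%. The Egr2 stretch is shown (GRCm38.p6, chr10:67537454-67537543, plus strand, RefSeq) because Egr2 was the one of these 4 past 2-fold, with its CArG box, 72 bases before the start, in capitals.
Egr2: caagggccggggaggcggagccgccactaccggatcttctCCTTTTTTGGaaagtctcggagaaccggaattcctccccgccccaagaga
Srf, Btg2 and Maff differed by 0.12, −0.06 and −0.03, all within 2-fold.

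Genes that ERK signalling, TGF-beta or cell tension switch on showed a few large differences. Of all genes measured 15.8% were higher and 5.57% lower, and of those of mean signal −4 or more 4.65% and 6.35%. At that signal 2 of 18 MAPK feedback genes were lower and 0 higher. SRF and YAP targets had 3 of 21 lower and 1 higher there, and TGF-beta and BMP response genes 3 of 24 lower and 1 higher. Among MAPK feedback genes 3 of 20 were lower, the phosphatases Dusp1 (1.93 to −0.43), Dusp5 (−2.67, dim; −1.26 with normexp) and Dusp2 (−1.20), while the adaptor Errfi1 differed by −0.13. SRF and YAP targets had 2 of 22 higher and 3 lower (median 0.03): Ccn2, connective tissue growth factor, differed by −2.18, the actin-binding Tagln by −1.67 (−2.09 to −3.77) and Crim1 by −1.04. Cytoskeletal members of that list were level, with Actb at 0.08, Flna at 0.18 and Acta2, the marker of myofibroblasts, at 0.11. Among TGF-beta and BMP response genes 1 of 26 was higher and 3 lower (median −0.22): Tgfbi, a secreted adhesion protein, 1.91 to 4.05, against Id2, an inhibitor of basic helix-loop-helix factors, 3.64 to 0.90, and the stress cytokine Gdf15 0.76 to −3.46. Of 12 measured plasminogen activation genes 2 were lower, among them urokinase (Plau, −2.09).

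Matrix lists are read against 15.8% higher and 5.57% lower among all genes measured, and 4.65% and 6.35% among those of mean signal −4 or more. Of 20 measured collagens 5 were higher and 0 lower (median 0.55), 4 of 17 among those of mean signal −4 or more. Chains of collagen VI, which forms beaded microfibrils, Col6a2 (−0.08 to 1.69) and Col6a1 (3.64 to 5.19), stood at the top, then Col5a3 (1.40) and the fibrillar Col3a1 (3.73 to 4.77). The chains of collagen I, the main fibrillar collagen, differed by 0.35 (Col1a2) and −0.08 (Col1a1, named after its values were seen). Of 20 processing enzymes, all of mean signal −4 or more, 2 were higher, against 4.65% of all such genes. These were the procollagen protease Adamts14 (1.25) and the lysyl hydroxylase Plod2 (1.00), while the chaperone Serpinh1 differed by 0.26. Small leucine-rich proteoglycans, which bind collagen fibrils, had 5 of 6 measured members higher: decorin, above, and Ogn, osteoglycin (0.07 to 1.83), were bright, and Omd, Fmod and Prelp dim, with normexp differences of 0.65, 0.42 and 0.14.

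Among matricellular and elastic fibre genes 8 of 31 were higher and 1, Ccn2, lower. Sparcl1, an anti-adhesive relative of Sparc, read −2.78 and 0.24 (3.02), Mfap2, a microfibril glycoprotein, −0.96 and 1.00 (1.96), Ccn5 1.50 and the thrombospondin Thbs2 1.29. Fbln2 (0.32) and Sparc (0.15) were bright and level. Matrix metalloproteinases and inhibitors had 7 of 16 higher and 1 lower, 4 of 9 at a mean signal of −4 or more. Those 4 were Mmp2 (−1.49 to −0.04), a gelatinase, its membrane-bound activator Mmp14 (−1.79 to −0.65), Mmp19 (1.35) and Mmp9 (1.19), and the lower one was the inhibitor Timp3 (−1.74 to −3.70). Timp2 (0.16) and Timp1 (−0.64) were within 2-fold. Of the ADAM family Adam23 (1.68) and Adamts7 (1.59) were higher and Adam8, a protease of blood cells, lower (2.24 to −0.90). Adam12 was lower at its brightest probe (−1.04) while another of its 4 reached 0.79. Integrins and laminins had 4 of 18 higher and 0 lower, the laminin chain Lama4 (−1.13 to 0.96) and the basement membrane linker Nid2 (−3.63 to −1.59) with clear signal, and the collagen receptor chains Itga11 and Itga1 dim (0.86 and 0.32 with normexp). The smooth muscle contractile list had 3 of 12 higher, all dim, and Tagln lower. Several matrix genes, among them Col1a1, Col3a1, Col6a1, Dcn and Sparc, are also in the fibroblast marker list, and scaling on that list takes the same 0.44 off every gene, which leaves a collagen median of 0.11 and a metalloproteinase median of 0.29.

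Among secreted signals, chemokines split. Ccl2, Ccl7 and Cxcl12, which recruit monocytes and lymphoid cells, were bright and level, with Ccl2 at 6.71 and 6.82, Ccl7 at 5.72 and 5.79, and Cxcl12 at 5.83 and 5.99. Pf4 (platelet factor, 3.72), Ccl8 (0.16 to 2.15) and Ccl9 (3.14 to 4.39) were higher, and so was Ccl11, eotaxin, a dim one (1.28; 0.78 with normexp). Ccl4, an activation product of leukocytes, read 3.70 and −5.33, and Ccl3, its neighbour named after its values were seen, was at least 403-fold lower. NF-kB targets had 2 of 20 higher, both dim, and 3 lower: the feedback enzyme Tnfaip3 (1.99 to −0.11), Ptgs2 and Il6. At a mean signal of −4 or more 0 of 15 were higher and 3 lower, against 4.65% and 6.35% of all such genes. Vcam1, an adhesion receptor for leukocytes, stood at 4.01 and 4.99. Genes that IL-4 and IL-13 act on were mixed. Il13ra2, the decoy receptor, was 2.82-fold higher, Il13ra1 2.15-fold and the neonatal Fc receptor Fcgrt 3.48-fold higher. Lower were Il4ra (−2.68, with another probe at −0.45) and the feedback gene Cish (−2.96).

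Growth factors had 3 of 23 higher and 2 lower, beside 15.8% and 5.57% of all genes measured. At a mean signal of −4 or more they had 3 of 20 higher and 2 lower, against 4.65% and 6.35% of all such genes. The angiopoietins Angpt4 (−4.18 to −1.57) and Angpt2 (−2.48 to −1.37), which act on the endothelial receptor Tie2, and Fgf10 (1.02) were higher, and the EGF receptor ligands Ereg (1.71 to 0.03) and Hbegf (1.40 to 0.07) lower. Of the insulin-like growth factor system, Igfbp3 (−1.85 to −0.37) was the higher member with clear signal, and Igfbp2, Igf2, Igfbp4 and Stc1 were dim ones with normexp differences between 0.20 and 0.48. The adaptor Irs2 was lower (−1.81). Igfbp5, named after its values were seen, read 3.25 at 0 h and was not well above background at 24 h, at least 684-fold lower, and in KO cells at least 2231-fold lower. Wnt pathway genes had 7 of 23 higher and 2 lower, and 3 of 14 higher and 1 lower at a mean signal of −4 or more. The ligand Wnt6 (2.26 to 3.92), the receptor Fzd1 (2.55 to 3.92) and the enhancer Rspo3 (−1.07 to 0.13) were the higher ones of clear signal.

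For the genes of the study's own circuit, Lpar1 was level while the enzyme that makes its ligand was not. Lpar1 gave −3.20 and −3.15, whereas Enpp2 was 19.1-fold higher at 24 h. Of all genes measured 15.8% were higher and 5.57% lower, and of those of mean signal −4 or more 4.65% and 6.35%. At that signal 4 of 17 lysophosphatidic acid and sphingosine 1-phosphate genes were higher and 1 lower. Of 19 measured genes that make, break or read lysophosphatidic acid and sphingosine 1-phosphate, 4 were higher and 2 lower. Beside Enpp2 these were the receptors S1pr3 (−0.89 to 0.61) and Lpar4 (−1.28 to −0.03) and the exporter Spns2 (1.23), and at the other end Lpar6 (4.20 to 1.54) and the blood cell receptor S1pr4 (−1.20, dim; −0.50 with normexp). The phosphatases that break these lipids, Plpp2 (0.41) and Plpp3 (0.33), lay within 2-fold.

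Of factors that act on mast cells, Il33, an alarmin read by the receptor Il1rl1, was 10.3-fold higher (−1.41 to 1.96), and Kitl, which encodes SCF, differed by 0.45. Il1rl1 itself, a mast cell marker here, went from 5.89 to −2.24. Has2, a hyaluronan synthase, differed by 0.75, its receptor Cd44 by −0.02 at the brightest of 4 probes (range −1.15 to 0.27), and Tnfaip6, which links hyaluronan to a serum protein, by 1.19. In the prostanoid list 6 of 20 were higher and 3 lower, beside 15.8% and 5.57% of all genes measured. At a mean signal of −4 or more 3 of 15 were higher and 3 lower, against 4.65% and 6.35% of all such genes. The higher ones of clear signal were receptors, Ptger1 (−3.77 to −1.41), Ptgir (−0.97 to 0.47) and Ptgfr (−2.02 to −0.60). The lower ones were enzymes, the cyclooxygenase Ptgs2 (2.06 to −0.05) and the mast cell enzymes Hpgds (−1.71 to −5.78) and Tbxas1 (2.28 to −4.86), whereas Ptgs1 (−0.16) and Ptges (0.29) were level. Ptgds was dim (−6.22 and −5.24) and its difference of 0.98 was 0.18 with normexp.

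In the unfolded protein and integrated stress response list, all of mean signal −4 or more, 5 of 23 were higher and 1 lower. Of all genes of that signal 4.65% were higher and 6.35% lower. The higher ones were Chac1, which degrades glutathione (2.03 to 3.85), the factor Ddit3 (0.30 to 1.84), the pseudokinase Trib3 (3.80 to 5.29), Vldlr and Sesn2 (1.00). Atf4 (0.22) and the folding enzyme Pdia6 (0.42) were level, as was the chaperone Hspa5, named after its values were seen (0.16). Ppp1r15a, which reverses the response, was lower (4.11 to 2.03). The amino acid synthesis genes Asns (0.42), Psat1 (0.21) and Phgdh (0.64) and the factor Atf5 (0.48), named after their values were seen, lay within 2-fold. Hypoxia and glycolysis genes, also all of that signal, had 4 of 25 higher, Pdk1 (−1.83 to −0.44), Ndrg1 (2.67 to 4.02), Pfkl (1.19) and Egln3 (1.09). They had 2 lower, the transporters Slc2a3 (−6.81) and Slc16a3 (−4.56). Of the metal and NRF2 genes Mt2, a metallothionein (4.57 to 6.02), the extracellular superoxide dismutase Sod3 (1.09) and the selenium carrier Selenop (1.08) were higher and the quinone reductase Nqo1 (−1.13) lower. The heat shock list had 0 of 14 higher and Hspa1a lower (−1.80), and of 19 p53 targets the death receptor Fas was higher (1.19) and Gdf15 lower. Glucocorticoid and clock genes held few calls, with Per1 (−1.32) and Glul, glutamine synthetase (3.02 to −1.15), lower and the clock output gene Dbp higher (1.08).

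Genes of growth and basic function lay within 2-fold between the arrays. Of 24 S phase genes, 24 G2 and M phase genes, 23 ribosomal protein genes, 25 subunits of oxidative phosphorylation and 15 housekeeping genes, 0 were called in either direction. Nearly all of them were of mean signal −4 or more, and of all genes of that signal 4.65% were higher and 6.35% lower. The medians of these lists were 0.09, 0.13, 0.27, 0.44 and 0.16, beside 0.28 for all genes measured and 0.19 for all genes of that signal. Pcna, the polymerase clamp, read 5.35 and 5.56, Cdc20, an activator of mitotic exit, 4.46 and 4.60, and Gapdh 6.28 and 6.56. Each of these medians falls below 0 under at least 1 of the alternative scalings, so no direction is given for them.

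**Figure D3:**
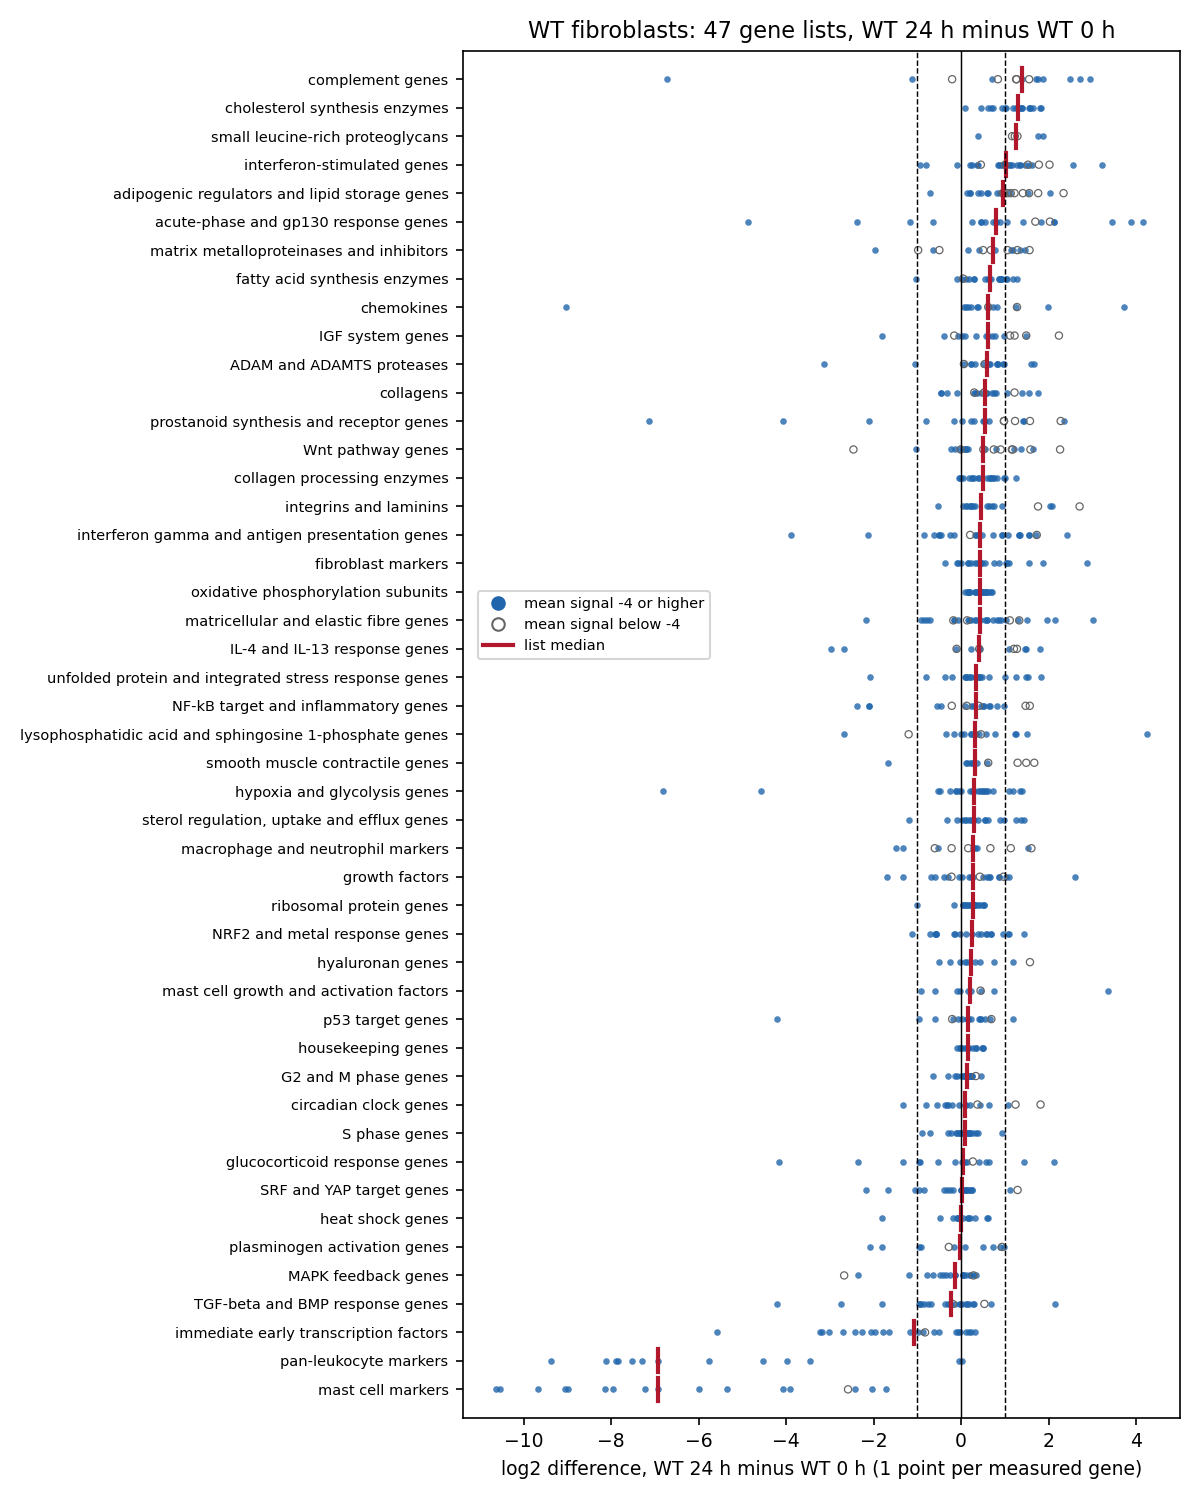
The log2 difference between WT 24 h and WT 0 h is plotted on the horizontal axis for every measured member of 47 gene lists, ordered by their medians (red bars), with filled points for a mean signal of −4 or more and open points below it. The mast cell and leukocyte lists lie at the bottom with medians of −6.93 and −6.92, the immediate early list follows, and complement, cholesterol, proteoglycan and interferon-stimulated lists have the 4 highest medians.

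The KO arrays gave a second reading of the same pair of labelled times, with no array in common with the WT pair. The mast cell sum there was 622.4 at 0 h and 23.38 at 24 h, and Il1rl1 was still bright at 24 h (6.28 to 3.86, against 5.89 to −2.24 in WT). That 24 h sum rests largely on Il1rl1, and all 17 mast cell markers measured in KO were lower at 24 h. Of all genes measured in KO cells 9.47% were higher and 10.9% lower at 24 h. In KO cells 10.7% of genes at a KO mean signal of −4 or more were higher and 9.75% lower. The 2 dim spike-in transcripts read −0.35 and −0.24 at 24 h minus 0 h in KO, against 0.98 and 1.25 in WT, so dim list members are not on an equal footing in the 2 pairs. Cholesterol enzymes had 11 of 21 higher and 0 lower there (median 1.01, against 1.29 in WT), complement genes a median of 0.89 and acute-phase genes 0.82. C3 differed by 3.58 in KO and 2.71 in WT, Il33 by 3.10 and 3.37, and Zbp1 by 3.32 and 3.22. Immediate early factors had 14 of 23 lower (median −1.61), beside mast cell markers at −6.42. For interferon-stimulated genes the KO median was 0.39, with 5 of 29 higher and 2 lower, and Ifit3 differed by 0.87 and Isg15 by 0.39. The interferon gamma list had 4 of 25 higher and 10 lower in KO (median −0.41) and the hypoxia list 0 of 25 higher and 5 lower (median −0.44). Sparcl1 differed by 1.09 in KO against 3.02 in WT, Pf4 by 0.95 against 3.72, and Gdpd2 by −0.30 against 3.95. TGF-beta response genes had a KO median of 0.49 against −0.22. Whether any of these differ between genotypes was not tested, since each rests on 1 array per group and the KO cells are 1 clone.

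**Figure D4:**
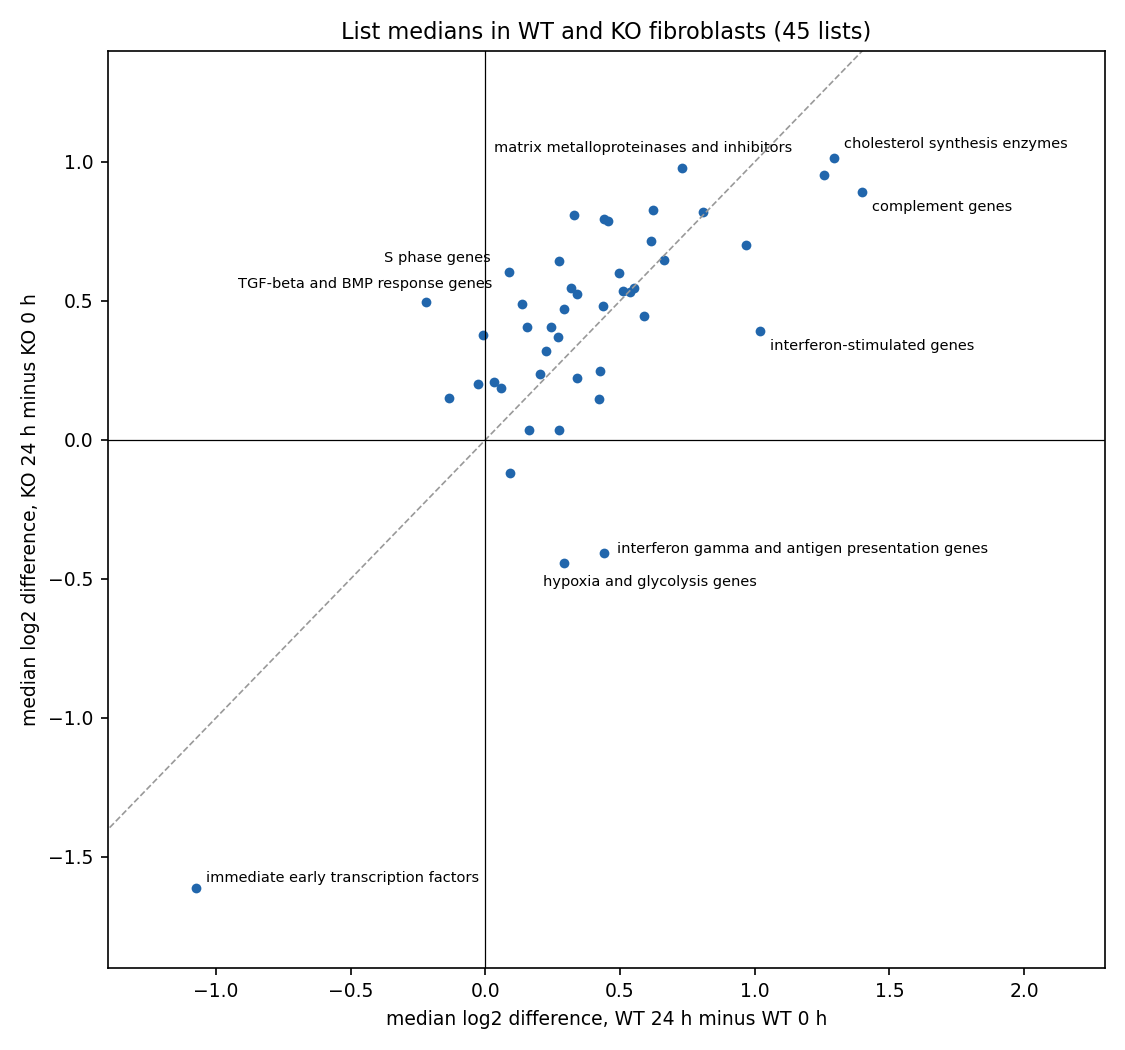
Each point is the median log2 difference between 24 h and 0 h of the measured members of 1 gene list, in WT (horizontal axis) and KO (vertical axis); the dashed line marks equal medians, and the mast cell and leukocyte lists are left out because they lie far outside the range. Cholesterol enzymes lie near the line at 1.29 and 1.01. The interferon gamma list (0.44 and −0.41) and the hypoxia list (0.29 and −0.44) have opposite signs. However, the WT interferon gamma median is 0.000372 in the setting where it is lowest. The WT hypoxia median is −0.06 with cyclic loess and −0.15 with fibroblast scaling.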

How the data were processed

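Per the file headers, spot intensity came from Agilent Feature Extraction 12.1.1.1, with background correction and without scaling across arrays. The authors' deposited table holds a ratio, each value being the array's processed signal over its 75th percentile. From the deposited scanner intensity, control and outlier spots were left out, log2 was taken, each array's 75th percentile over 43020 non-control spots was subtracted, and spots of a probe were averaged (39429 probes). Of these, 29110 were named by accession through the RefSeq table of GRCm38.p6 (344 symbols changed) and 10319 kept the file's name. A gene took its brightest probe and counted as measured where that probe was well above background on both arrays. Spots well above background made up 72.7% (WT) and 71.5% (KO) at 0 h and 67.3% (WT) and 62.1% (KO) at 24 h, and 0 spots were saturated. An at-least fold sets the bright signal against the array's lowest signal well above background or the dim probe's signal, whichever was larger. Python 3.11.15, R 4.3.3 and limma 3.58.1 were used. A check of the code on simulated data recovered 200 of 200 changed genes. Their differences were set above 2-fold with noise below the spot error, so this says nothing about sensitivity on these arrays. The 47 gene lists and the members were chosen with earlier results of these data known. Named genes are the 15 highest and lowest, the 6 largest at-least folds a side, up to 6 members at each end and 3 of highest signal per list, and the title's genes. The cholesterol list is given beyond this rule, and many other exceptions are marked. Not all are: Hdc, Slc6a4, Mcpt1, Mrgprb1, Oas1a, Oasl1, Rsad2, C6 and C7 are among those named outside the rule without a mark. Some members are counted but not reported here by name. Alternatives were quantile, cyclic loess and fibroblast marker scaling, normexp (offset 50) with quantile, the authors' table, 2 other filters and the mean of probes.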

Additional observations from a re-analysis of the deposited data

Results flagged for a closer look

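Of the 339 named genes, 4 lay at least 2-fold apart in opposite directions between the labelled times in WT and KO cells, with a mean signal of −4 or more in each pair. Many of the 339 were named for their WT difference. The share of such genes among all genes measured in both pairs was not counted, so 4 cannot be called few or many. Gbp4, an interferon-induced GTPase, differed by 1.34 in WT and −2.87 in KO, where it read −2.39 at 0 h and −5.26 at 24 h. Irgm2, a second such GTPase, differed by 1.55 in WT and −1.45 in KO (−0.21 and −1.66). Pdk1, a kinase that restrains pyruvate dehydrogenase, differed by 1.40 in WT and −1.98 in KO (−1.33 and −3.31). Selenop, the selenium carrier of plasma, differed by 1.08 in WT and −5.13 in KO (2.23 and −2.90). None of these differences between genotypes was tested, because each rests on 1 array per group.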

How the results depend on the processing

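The main counts were 3028 higher and 1070 lower, so 73.9% of calls were higher. The split turned with the scaling: quantile gave 64.8% (2119 and 1149), cyclic loess 42.3% (1066 and 1452), fibroblast scaling 41.5% (1376 and 1937), normexp 38.6% (461 and 732), no filter 80.5% (8813 and 2134) and the stricter filter 49.8% (320 and 323). The authors' table (3027 and 1070), the mean of probes (3088 and 1038) and a probe chosen on the 2 WT arrays alone, added after seeing the data (3058 and 1075), stayed close. These settings moved the median of all genes by −0.24 (cyclic loess), −0.44 (fibroblast scaling), −0.16 (normexp) and 0.13 (no filter). Over all settings 17 list medians stayed above 0, cholesterol (0.85 to 1.29), interferon-stimulated (0.58 to 1.07), complement (0.67 to 1.76) and acute-phase (0.37 to 0.88) among them, and 5 stayed below 0: mast cell, leukocyte, immediate early, MAPK feedback and TGF-beta. With the mean of their probes Scd3 went from −1.03 to 0.000128 and Adam12 from −1.04 to 0.049. No paired analysis was possible because each group has 1 array, and no replicate could be left out for that reason. Signal over background limits the dim genes.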

Other observations

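Outside the lists, Krt15, a keratin of basal epithelial cells, was at least 7.45-fold higher at 24 h in WT, where it was dim (log2 difference 0.47 with normexp), and differed by 2.05 on the log2 scale in KO. Spib was 12.3-fold higher in WT and at least 20.7-fold higher in KO, where it was not well above background at 0 h. Thy1 read −7.02 and −7.41 on the WT arrays against 3.73 and 4.12 on the KO arrays, so the WT line and the KO clone lay apart in a fibroblast surface marker at both labelled times.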
